A study of Mus musculus with 6 samples.

Results

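The clustered protocadherin genes were examined in 6 RNA-seq libraries of NIH3T3 cells, a line of mouse embryo fibroblasts. All rows of the count table named as alpha, beta or gamma cluster genes were taken, which gave 24 of 35275 rows. Of these, 22 were beta genes, 1 was an alpha row named Pcdha10 and 1 a gamma row named Pcdhga12. The 3 libraries labelled NgBR overexpression came from NIH3T3 cells carrying a stably integrated plasmid for HA-tagged NgBR, selected with G418. NgBR is the Nogo-B receptor, encoded by Nus1. The 3 wild-type libraries came from NIH3T3 cells with no treatment named. Both lines grew in DMEM with calf serum. The sources used here do not say whether the transfected line is 1 clone or a pool, and no empty-vector line was analysed here. The labels do not say that replicates came from separate cultures, so p-values reflect variation among these libraries alone, part or all of which may be technical.

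Clustered protocadherins are adhesion proteins of the cadherin superfamily that bind the same isoform on a facing membrane, and they are best known for giving neurons a surface identity. Each variable exon of the alpha and gamma clusters has its own promoter and is spliced to constant exons shared by its cluster. Each beta gene has its own promoter and encodes its whole protein in a single exon. The choice among promoters depends on the insulator protein CTCF, on cohesin and on DNA methylation. In bulk RNA, use of a promoter by more cells and more RNA per cell cannot be told apart.

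The resolution of the table differed between the clusters. GENCODE M21, an annotation of the mm10 assembly, names 14 alpha, 22 beta and 22 gamma genes on chromosome 18, plus strand. The identifiers of all 22 beta genes were in the table, against 1 alpha and 1 gamma identifier. M21 gives the identifier of the alpha row (ENSMUSG00000007440) to Pcdha11 and that of the gamma row (ENSMUSG00000023036) to Pcdhgc4, so each row's name and identifier disagree between annotations. The sources used here do not give the exons counted in these rows, and a row may stand for 1 gene or for several genes joined across its cluster. Promoter choice could therefore be compared in the beta cluster, and the alpha and gamma rows are given as levels of rows whose exons are unknown. The beta genes lie between 37264938 and 37524479 of chromosome 18. Between 0% and 11.3% of the 50-base words of a beta transcript occurred in transcripts of another gene, apart from Pcdhb12 with 64.2%. Most of that overlap lies with the antisense gene Gm37446, and with the strand setting unknown the counts of Pcdhb12 are uncertain. Pcdhb21 and Pcdhb22 overlap each other, with 90.3% and 93.1% of their exonic bases free of other genes.

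Depth ran with the groups. The labelled libraries held 7369961 to 10358381 counts, against 29515072 to 35511769 in the wild-type libraries. Levels also followed exonic length to a different extent in each library. The Spearman correlation across genes between length and the deviation from the 6-library mean was 0.068, 0.347 and -0.467 in labelled libraries 1 to 3. It was -0.226, 0.242 and -0.299 in wild-type libraries 1 to 3. Nus1, the check of the label, was at 184, 185 and 165 CPM (counts scaled to a common library size with TMM factors) in the labelled libraries, against 212, 187 and 233 CPM in wild type. Its log2 fold change was -0.24 (edgeR adjusted p = 0.786), and each labelled library lay below every wild-type library. Reads of the transgene need not map to the mouse gene, so this neither checks nor contradicts the label. Fibroblast markers summed to between 21730 and 32660 CPM in labelled libraries and between 21370 and 25530 CPM in wild type, with 10 of 10 tested. Of these edgeR called 0, with 1 at an unadjusted p under 0.05, DESeq2 called 1 and limma-voom 0. That marker, named after its values were seen, was Dcn. It was at 180, 468 and 347 CPM in the labelled libraries, against 751.5, 942 and 746 CPM in wild type (log2 fold change -1.29, DESeq2 adjusted p = 0.00955). The ranges also lay apart for Pdgfra, lower in the labelled libraries, and for Col1a1, higher, and neither was called.

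The alpha and gamma rows and most beta genes had lower mean levels in the labelled libraries, but no member passed the test. With p-values adjusted over all genes, the quasi-likelihood test of edgeR called 0 of 21 tested members, where 3.39% of the 12651 tested genes were called. DESeq2 called 0 of 23, where 4.61% of all genes were called, and limma-voom 0 of 21, where 3.24% were called. The fold change was negative for 15 of the 21 members and for 51.3% of all tested genes. It was negative for 12 of 23 tested members when labelled library 3 was left out and for 18 of 23 when labelled library 2 was. At an unadjusted p under 0.05, 6 members passed, each with a negative fold change, beside 5.11% of all tested genes in that direction. That count rests on single libraries: counting either direction, it was 3, 13 and 2 with labelled libraries 1 to 3 left out in turn, and 2, 6 and 3 with wild-type libraries 1 to 3 left out. The CPM ranges of the groups lay apart with the labelled libraries lower for 10 members, where 9.37% of all genes did so. They lay apart with the labelled libraries higher for 1 member, where 9.21% did so. The median log2 fold change was -0.60 over the 21 tested members and -0.01 over all tested genes. The members' log2 fold changes had a median SE of 0.34. Members share a locus and are no independent replicates of each other.

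The gamma row, Pcdhga12, which may join several gamma genes, held most of the clustered protocadherin reads. It was at 576, 663 and 444 CPM in labelled libraries 1 to 3, against 919, 765 and 874 CPM in wild-type libraries 1 to 3. Every labelled library was below every wild-type library. The log2 fold change was -0.60 (SE 0.27, 95% interval -1.21 to 0.00), with an edgeR adjusted p of 0.443. This row took 83.5%, 80.3% and 83.2% of all member counts in the labelled libraries and 84.5%, 83.3% and 85.6% in wild type. This share and the proportion to beta counts are of the row, not of 1 known gene. Its proportion to the beta counts was 5.21, 4.20 and 5.13 in labelled libraries 1 to 3, and 5.67, 5.24 and 6.16 in wild type. These ranges lay apart by little, with labelled library 1 and wild-type library 2 close to each other.

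The alpha row, Pcdha10, had the fewest reads of the clusters. It had 3.65, 4.45 and 2.87 CPM in labelled libraries 1 to 3, against 6.42, 7.71 and 5.21 CPM in wild type. The ranges did not overlap. The log2 fold change was -0.82 (SE 0.31, 95% interval -1.51 to -0.13, unadjusted p = 0.0252, adjusted p = 0.304 by edgeR). The counts behind it were 26, 45 and 30 in the labelled libraries and 224, 228 and 173 in wild type.

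The 22 beta genes together were at 111, 158 and 86.6 CPM in labelled libraries 1 to 3, against 162, 146 and 142 CPM in wild type. Labelled library 2 lay within the wild-type range, and the other labelled libraries lay below it. The log2 ratio of the means was -0.34. Leaving out labelled library 2 gave -0.61 and leaving out labelled library 3 gave -0.16, so the size of this ratio rests on single libraries. Those are the labelled libraries whose levels followed length most strongly, with correlations of 0.347 and -0.467, and the part of this in the beta sum was not tested. No p is given for a sum over members.

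**Figure D1:**
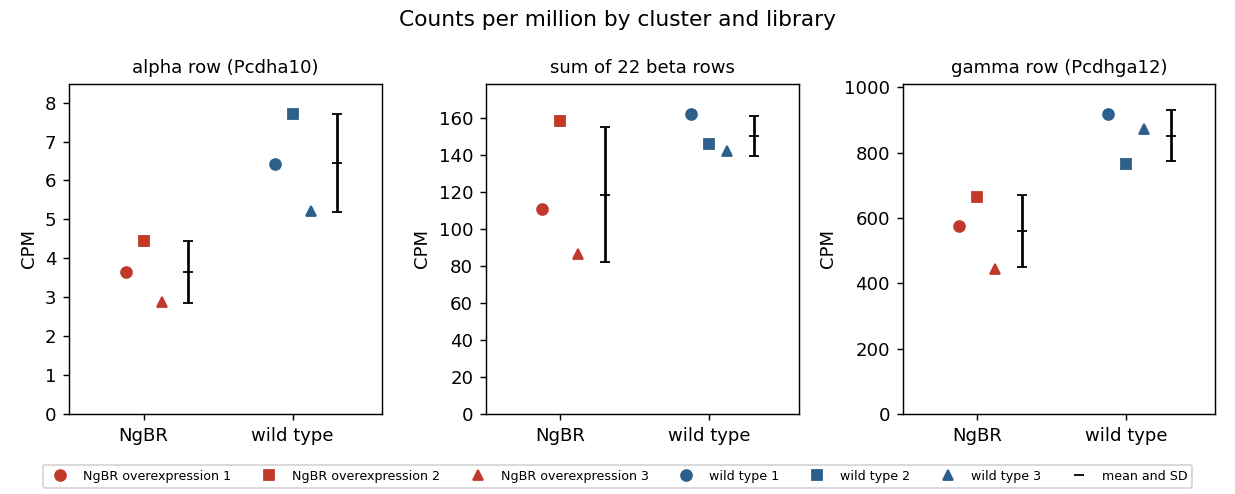
CPM of the alpha row, of the 22 beta rows summed and of the gamma row in each library, with libraries labelled NgBR overexpression in red and wild type in blue. Black bars give the mean and SD of 3 libraries. The labelled libraries lie below wild type for the alpha and gamma rows, and labelled library 2, at 158 CPM, lies within the wild-type range of the beta sum.

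Levels of the beta genes spanned more than an order of magnitude. Of the 22, 19 passed the filter on low counts and 3 did not. Pcdhb1 had 0 counts in all 6 libraries, and a count of 3 over a group corresponds to 0.108 CPM in the labelled libraries and 0.0307 CPM in wild type. Pcdhb10 had 5, 4 and 5 counts in the labelled libraries, against 16, 14 and 13 in wild type. Pcdhb13 had 2, 6 and 4 counts in the labelled libraries and 13, 21 and 2 in wild type. Both were low in either line, with means of 0.525 and 0.441 CPM for Pcdhb10 and 0.419 and 0.381 CPM for Pcdhb13 in labelled and wild-type libraries.

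Per kilobase of exon, with the lengths of M21, the order of the leading beta genes was not the same in the groups. Pcdhb16 ranked 1 in the labelled libraries at 4.52 ± 1.52 CPM per kb and 2 in wild type at 3.998 ± 0.292 CPM per kb (SD, n = 3 each). Pcdhb7 ranked 3 in the labelled libraries at 2.83 ± 0.332 CPM per kb and 1 in wild type at 4.70 ± 0.701 CPM per kb. Pcdhb15 ranked 2 in the labelled libraries, at 3.34 ± 1.52 CPM per kb, and 7 in wild type, at 2.72 ± 0.486 CPM per kb. In the labelled libraries Pcdhb16 and Pcdhb15 overlapped within 1 SD, and so did Pcdhb7 and Pcdhb16 in wild type. Pcdhb16 and the next gene in wild type, Pcdhb5 at 3.32 ± 0.326 CPM per kb, did not. These SDs are between libraries. Within each library, Pcdhb16 lay above Pcdhb15 in the labelled group and Pcdhb7 lay above Pcdhb16 in wild type. Pcdhb16 was at 4.62, 5.98 and 2.94 CPM per kb in labelled libraries 1 to 3, against 2.655, 5.09 and 2.29 for Pcdhb15. Ranks 2 and 3 of the labelled means did not hold within each library. Pcdhb7 was at 2.97, 3.08 and 2.46 CPM per kb there, above Pcdhb15 in labelled libraries 1 and 3 and below it in labelled library 2. Pcdhb7 was at 5.03, 3.895 and 5.18 CPM per kb in wild-type libraries 1 to 3, against 4.335, 3.827 and 3.831 for Pcdhb16. Pcdhb5, Pcdhb17, Pcdhb21 and Pcdhb9 filled the next ranks in both groups in differing order, between 1.74 and 2.55 CPM per kb in the labelled libraries and between 2.73 and 3.32 CPM per kb in wild type. The lengths the authors counted over may differ from those of M21.

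**Figure D2:**
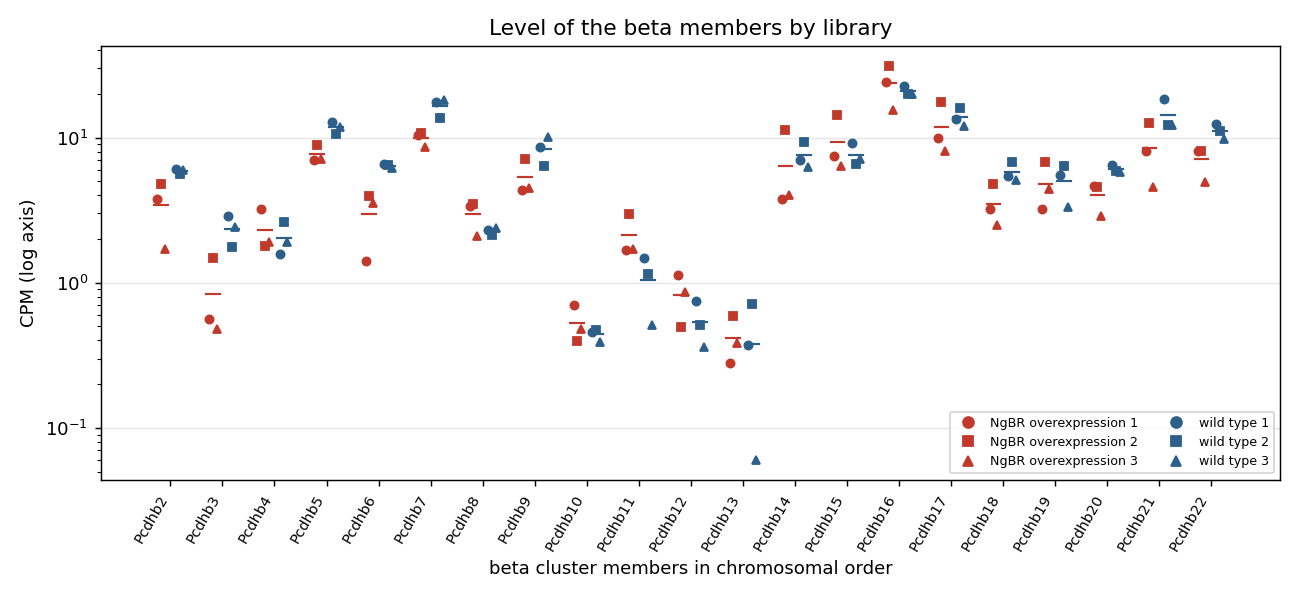
CPM on a log axis of the 21 beta genes with counts, in chromosomal order, with 3 libraries labelled NgBR overexpression in red on the left of each position and 3 wild-type libraries in blue on its right. Lines give group means. Pcdhb16 is the most abundant beta gene in both groups, and Pcdhb1, at 0 counts, is not drawn.

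Beta genes with negative fold changes included genes towards both ends of the cluster. Pcdhb7 was at 10.4, 10.8 and 8.60 CPM in labelled libraries 1 to 3, against 17.6, 13.6 and 18.1 CPM in wild type. Its log2 fold change was -0.73 (SE 0.24, 95% interval -1.27 to -0.19, edgeR adjusted p = 0.211), the smallest p among the members. Pcdhb5 was at 7.02, 8.90 and 7.07 CPM in the labelled libraries, against 12.9, 10.6 and 11.8 CPM in wild type. Neither gene's ranges overlapped.

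Pcdhb6 was at 1.40, 3.96 and 3.53 CPM in the labelled libraries, against 6.53, 6.50 and 6.14 CPM in wild type. The labelled libraries were all lower and more spread, on counts of 10, 40 and 37. Its log2 fold change was -1.08 (SE 0.37, edgeR adjusted p = 0.24). Pcdhb3 had the most negative fold change of the members, -1.46 (SE 0.50, 95% interval -2.58 to -0.33, edgeR adjusted p = 0.24). It was at 0.561, 1.48 and 0.478 CPM in the labelled libraries, against 2.89, 1.76 and 2.41 CPM in wild type. Its counts were low, with 4, 15 and 5 in the labelled libraries and 101, 52 and 80 in wild type. Pcdhb3 did not pass the filter when all libraries were thinned to the shallowest. Both libraries numbered 2 lay nearest the other group. Without them its log2 fold change was -2.36 and it was called (edgeR adjusted p = 0.03), the single setting among those run in which a member was called. Without labelled library 2 alone the value was -2.19.

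At the other end of the cluster, Pcdhb22 was at 8.14, 8.11 and 4.97 CPM in the labelled libraries, against 12.4, 11.0 and 9.75 CPM in wild type. Pcdhb22 thus did not overlap between the groups (log2 fold change -0.65, SE 0.28, edgeR adjusted p = 0.419). Pcdhb20 was at 4.63, 4.55 and 2.87 CPM in the labelled libraries, against 6.50, 5.92 and 5.81 CPM in wild type, and Pcdhb18 had a log2 fold change of -0.73 with separate ranges. Pcdhb2, next to the start of the cluster, was at 3.79, 4.75 and 1.72 CPM in the labelled libraries, against 6.04, 5.58 and 6.02 CPM in wild type. Its value of -0.79 moved to -1.13 when labelled library 2 was left out and to -0.46 when labelled library 3 was. Pcdhb9 and Pcdhb21 had log2 fold changes of -0.65 and -0.75 with overlapping ranges. Leaving out labelled library 2 moved the value of Pcdhb21 to -1.18, and leaving out labelled library 3 moved it to -0.44.

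Pcdhb14 to Pcdhb17, which are neighbours, had log2 fold changes between -0.24 and 0.30. Pcdhb16 was at 24.1, 31.3 and 15.4 CPM in the labelled libraries, against 22.6, 20.0 and 20.0 CPM in wild type. Labelled library 3 lay below and the other labelled libraries above the wild-type range. The log2 fold change was 0.17 (SE 0.28, 95% interval -0.45 to 0.80, edgeR adjusted p = 0.912), against -0.09 when labelled library 2 was left out and 0.41 when labelled library 3 was. Pcdhb15 was at 7.44, 14.3 and 6.40 CPM in the labelled libraries, against 9.16, 6.56 and 7.16 CPM in wild type. Its log2 fold change of 0.30 turned to -0.15 when labelled library 2 was left out, and was 0.52 when labelled library 3 was. Pcdhb14, with 3.79, 11.2 and 4.01 CPM in the labelled libraries and 7.04, 9.30 and 6.26 CPM in wild type, also had its highest value in labelled library 2. Its log2 fold change was -0.24, against -0.95 when that library was left out and 0.01 when labelled library 3 was. Pcdhb17 had a log2 fold change of -0.21, which moved to -0.62 when labelled library 2 was left out and to 0.01 when labelled library 3 was.

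Pcdhb11 was the member with separate ranges in the upward direction. It was at 1.68, 2.97 and 1.72 CPM in the labelled libraries, against 1.49, 1.15 and 0.512 CPM in wild type. Its counts were 12, 30 and 18 in the labelled libraries and 52, 34 and 17 in wild type. The log2 fold change was 1.02 (SE 0.49, 95% interval -0.08 to 2.12, edgeR adjusted p = 0.481). Pcdhb4, Pcdhb8, Pcdhb12 and Pcdhb19 had log2 fold changes of 0.16, 0.38, 0.58 and -0.06 with overlapping ranges. The signs of Pcdhb4 and Pcdhb19 turned when single libraries were left out. Pcdhb8 moved to 0.24 when labelled library 2 was left out and to 0.58 when labelled library 3 was. Pcdhb12 ranged between 0.32 and 0.85 when a labelled library was left out, and did not pass the filter when a wild-type library was.

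**Figure D3:**
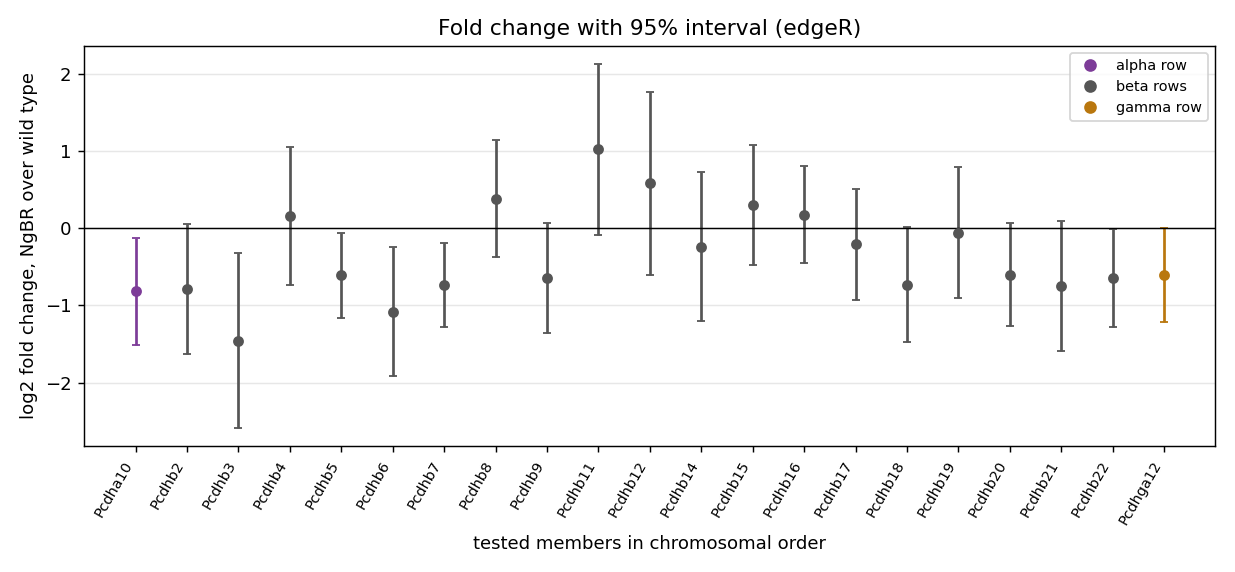
log2 fold change, libraries labelled NgBR overexpression over wild type, of the 21 tested members in chromosomal order, with 95% intervals from edgeR's fit over all genes. The alpha row is purple, beta genes are grey and the gamma row is ochre. Values run between -1.46 for Pcdhb3 and 1.02 for Pcdhb11, and none was called after adjustment.

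Across the 19 tested beta genes, the log2 fold change had little relation to measured features of the genes. Spearman correlations were 0.186 with position in the cluster, -0.079 with exonic length and 0.037 with GC content. They were -0.186 with mean CPM and -0.007 with the share of 50-base words found in other genes. The genes share libraries and sequence, and these values are descriptions over n = 19 genes. With offsets for exonic length and GC content by library, 15 of 21 members kept a negative fold change, as without them, with a median of -0.57. The offsets use the M21 lengths, which may not be those of the alpha and gamma rows.

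Promoter choice in the beta cluster was compared as the share of each gene in the beta counts of its library, which depends on neither the total depth nor the scaling. A share of counts does depend on gene length, and levels followed length differently between libraries. Pcdhb16 had the highest mean share over the 6 libraries. It took 21.8%, 19.8% and 17.8% of the beta counts in labelled libraries 1 to 3, against 14.0%, 13.7% and 14.1% in wild type. Every labelled library was above every wild-type library. The means were 19.8 ± 2.03% and 13.9 ± 0.214% (SD, n = 3 each) in labelled and wild-type libraries. An exact two-sided permutation test gave p = 0.1, the smallest p that 3 libraries against 3 allow. The alpha and gamma clusters had 1 row each, so this was the only such test. Leaving out each library in turn gave differences between 4.86 and 6.88 percentage points. Shares were also taken per kilobase of M21 exon that no other gene overlaps. Pcdhb16 then averaged 15.5 ± 1.62% in labelled and 10.9 ± 0.0834% in wild-type libraries, a difference of 4.62 points. On that scale Pcdhb7 averaged 10.2% in labelled and 12.8% in wild-type libraries, so Pcdhb7 led in wild type.

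A share is relative to the other beta genes, and the CPM of Pcdhb16 overlapped between the groups as given above. Pcdhb7, the second beta gene by mean share, took 9.39%, 6.83% and 9.93% of the beta counts in the labelled libraries and 10.9%, 9.34% and 12.8% in wild type, with overlapping ranges. There were 2.32, 2.90 and 1.79 counts of Pcdhb16 for each count of Pcdhb7 in labelled libraries 1 to 3, against 1.29, 1.47 and 1.1 in wild type. This pair was chosen after its values were seen, so the ratio is a description.

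Of the 22 beta genes, 4 had shares with separate ranges and higher in the labelled libraries, 4 had them lower, and 14 overlapped. No background over other genes exists for such shares, and they are not tested. Besides Pcdhb16, the higher shares were those of Pcdhb8, Pcdhb11 and Pcdhb15. Pcdhb15 took 6.73%, 9.02% and 7.39% in the labelled libraries, against 5.66%, 4.496% and 5.05% in wild type. Pcdhb8 averaged 2.56 ± 0.44% in labelled and 1.52 ± 0.134% in wild-type libraries, and Pcdhb11 1.80 ± 0.243% and 0.689 ± 0.292% (SD, n = 3 each). The lower shares were those of Pcdhb2, Pcdhb3, Pcdhb18 and Pcdhb21. Pcdhb21 took 7.36%, 8.02% and 5.30% in the labelled libraries, against 11.3%, 8.32% and 8.58% in wild type.

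**Figure D4:**
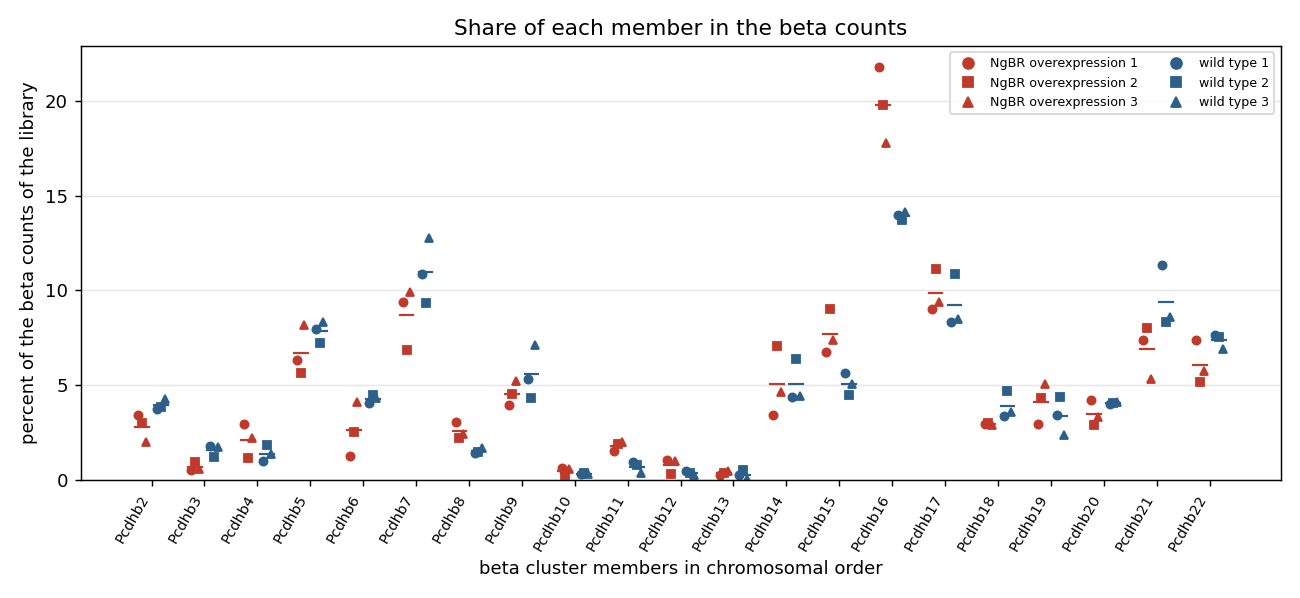
Share of each beta gene in the beta counts of its library, in percent, in chromosomal order, with 3 libraries labelled NgBR overexpression in red on the left and 3 wild-type libraries in blue on the right of each position. Lines give group means. Pcdhb16 averages 19.8% in the labelled and 13.9% in the wild-type libraries.

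Counts were found at the same beta genes in both lines. Every library had counts at 21 of the 22 beta genes, with Pcdhb1 at 0 in all. The 4 leading genes of a library took 47.6%, 48.0% and 45.3% of the beta counts in labelled libraries 1 to 3, against 44.5%, 42.2% and 44.0% in wild type. The effective number of genes in use, the inverse Simpson index of the shares, was 10.7, 11.1 and 12.3 in labelled libraries 1 to 3. It was 12.7, 13.3 and 12.5 in wild-type libraries 1 to 3. The groups did not overlap, but labelled library 3 and wild-type library 3 were close. With every library thinned to the 788 beta counts of the shallowest, the values were 10.7, 11.0 and 12.2 in the labelled libraries and 12.5, 13.2 and 12.35 in wild type.

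Libraries of different groups differed more in beta composition than libraries of the same group. The share of beta counts placed on different genes was between 13.2% and 19.4% for the 9 pairs across groups. It was between 11.5% and 12.97% for the 3 pairs of labelled libraries and between 6.23% and 9.73% for the 3 wild-type pairs. The labelled libraries had 788, 1596 and 906 beta counts, against 5659, 4315 and 4711 in wild type. Counting error is therefore larger in the labelled libraries, and its part in these distances was not tested.

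Genes known to act with clustered protocadherins were set beside them, in lists chosen by function. The regulators of promoter choice held CTCF, cohesin and its loaders, DNA methyltransferases, TET enzymes, Smchd1 and H3K9 methylation factors. Of 32 tested regulators, edgeR, DESeq2 and limma-voom called 0, with 2 at an unadjusted p under 0.05 in edgeR, and their median log2 fold change was 0.10. The 2, named after their values were seen, were Stag2 and Tet1. Stag2 was at 354, 277 and 222 CPM in the labelled libraries, against 161.5, 202 and 155 CPM in wild type (log2 fold change 0.72, edgeR adjusted p = 0.264). Tet1 was at 28.9, 57.1 and 18.25 CPM, against 19.6, 12.4 and 16.1 CPM in wild type, with overlapping ranges (log2 fold change 1.12, edgeR adjusted p = 0.261). Ehmt2, a histone H3K9 methyltransferase, averaged 468 ± 119 CPM in labelled and 455 ± 64.7 CPM in wild-type libraries. Trim28, a corepressor, averaged 410 ± 62.3 and 405 ± 50.4 CPM (SD, n = 3 each). Ctcf, named after its values were seen, was at 107, 102 and 95.8 CPM in the labelled libraries and 92.2, 106 and 102 CPM in wild type, with a log2 fold change of 0.02 (95% interval -0.42 to 0.46). The signs of Ehmt2 and Trim28 turned between settings.

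Of 10 tested non-clustered protocadherins and related cadherins, 1 rose and 1 fell with edgeR, where 3.39% of all genes were called, and 4 had an unadjusted p under 0.05. limma-voom also called 1 higher and 1 lower. DESeq2 called 3 of 12 higher and 1 lower, where it called 4.61% of all genes. Pcdh10, a delta protocadherin, rose to 2.11, 3.17 and 2.01 CPM in the labelled libraries, against 0.344, 0.101 and 0.211 CPM in wild type. Its counts were 15, 32 and 21 in the labelled libraries and 12, 3 and 7 in wild type (log2 fold change 3.42, SE 0.52, edgeR adjusted p = 0.00719). Fat4, a giant cadherin that binds Dachsous, fell to 36.4, 52.6 and 18.4 CPM in the labelled libraries, against 161, 204 and 93.5 CPM in wild type (log2 fold change -2.09, SE 0.42, edgeR adjusted p = 0.0271). Fat4 did not pass when labelled library 1 or 3 was left out (edgeR adjusted p = 0.148 and 0.0698), nor when wild-type library 1 or 2 was (edgeR adjusted p = 0.0572 and 0.0921). The genes called higher by DESeq2 beside Pcdh10, named after their values were seen, were Pcdh17 and Cdhr1 (DESeq2 adjusted p = 0.0293 and 0.0162). Pcdh17 was at 4.63, 1.29 and 1.34 CPM in the labelled libraries, against 0.802, 0.474 and 0.241 CPM in wild type, and was not called by edgeR (adjusted p = 0.15). Cdhr1 had 2, 10 and 6 counts in the labelled libraries and 2, 0 and 0 in wild type, and did not pass edgeR's filter. The median log2 fold change of this list was 0.07.

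Among 22 tested binding and processing partners, 1 rose and 2 fell with edgeR and with DESeq2, 4 had an unadjusted p under 0.05 in edgeR, and the median log2 fold change was 0.03. limma-voom called 1 higher and 1 lower. Ptk2b, the kinase PYK2 that clustered protocadherins inhibit in neurons, rose to 7.16, 10.6 and 6.97 CPM in the labelled libraries, against 1.75, 1.29 and 1.96 CPM in wild type (log2 fold change 2.30, SE 0.32, edgeR adjusted p = 0.00483). Wasf3, a subunit of the WAVE complex of actin assembly, fell to 4.49, 5.64 and 5.45 CPM in the labelled libraries, against 21.4, 27.2 and 21.2 CPM in wild type (log2 fold change -2.16, SE 0.25, edgeR adjusted p = 0.00197). Psen2, a catalytic subunit of gamma-secretase, fell to 5.19, 4.55 and 3.63 CPM in the labelled libraries, against 11.2, 14.7 and 9.39 CPM in wild type (log2 fold change -1.41, SE 0.29, edgeR adjusted p = 0.0318). Psen2 did not pass whichever of the 6 libraries was left out. The edgeR adjusted p was 0.0906, 0.0738 and 0.109 with labelled libraries 1 to 3 left out, and 0.113, 0.0727 and 0.0553 with wild-type libraries 1 to 3 left out. The groups did not overlap for any of the 3 genes.

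Genes that flank the clusters on chromosome 18 had a median log2 fold change of -0.01, with 0 of 17 tested called by edgeR, DESeq2 and limma-voom and 1 at an unadjusted p under 0.05 in edgeR. That gene, named after its values were seen, was Arap3, with a log2 fold change of 2.39 and separate ranges. Its adjusted p was 0.059 with edgeR, 0.0503 with DESeq2 and 0.0646 with limma-voom. Its counts were low, with 5, 6 and 14 in the labelled libraries and 6, 6 and 4 in wild type. Diap1, a formin just past the gamma cluster, averaged 97.3 ± 39.4 CPM in labelled and 84.5 ± 10.6 CPM in wild-type libraries. Hdac3, a histone deacetylase beside it, averaged 89.3 ± 12.7 and 78.8 ± 19.7 CPM (SD, n = 3 each).

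**Figure D5:**
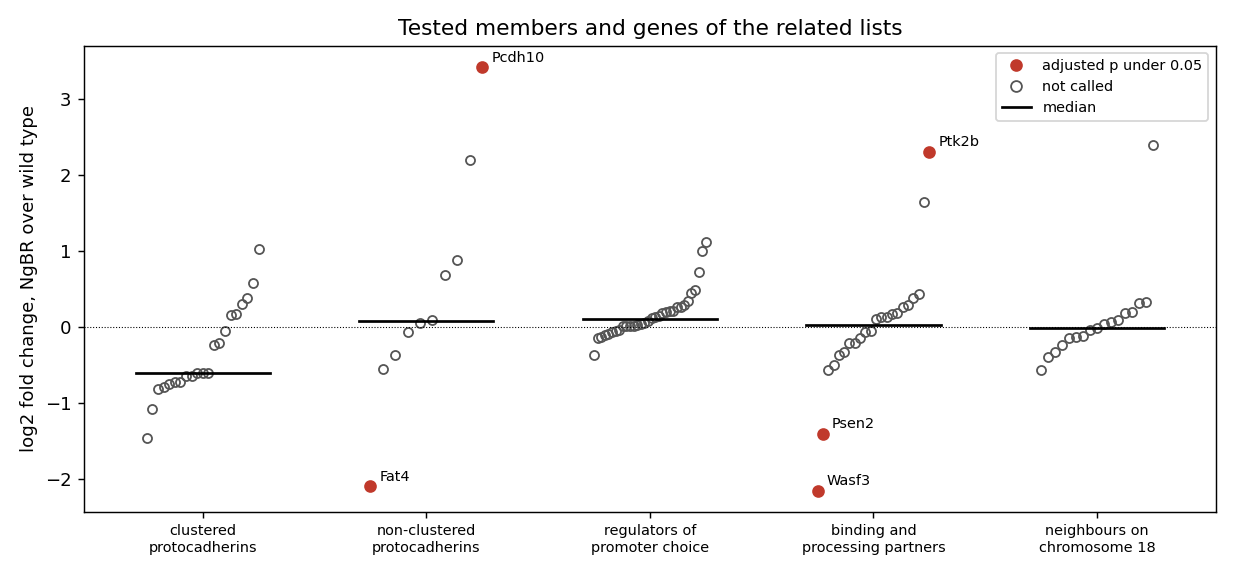
log2 fold change, libraries labelled NgBR overexpression over wild type, of the 21 tested clustered protocadherins and of the tested genes of 4 related lists. Filled red points passed edgeR's adjusted p threshold of 0.05, open points did not, and black lines give medians. The median is -0.60 for the clustered protocadherins and between -0.01 and 0.10 for the other lists.

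Neural and glial markers, genes of cells that use clustered protocadherins most, did not pass the filter on low counts for the most part. Of 22 markers, 8 were tested, and 1 rose and 1 fell with edgeR and with limma-voom, where edgeR called 3.39% of all genes. At an unadjusted p under 0.05 in edgeR, 4 passed, and the median log2 fold change was 0.615, against -0.01 over all tested genes. DESeq2 called 4 of 15 higher and 1 lower, where it called 4.61% of all genes. The 3 it called that edgeR did not were Map2, Nefm and Mbp, each higher in the labelled libraries (DESeq2 adjusted p = 0.00374, 0.0179 and 0.0378), named after their values were seen. Nefm did not pass edgeR's filter, with 8, 3 and 2 counts in the labelled libraries and 0, 0 and 1 in wild type. The summed level of the markers was between 112 and 418 CPM in labelled libraries and between 116 and 193 CPM in wild type, and Dcx was at 0 in all libraries. Ncam1, also a cell adhesion molecule of many tissues, made up most of that sum, at 160, 401 and 92.0 CPM in the labelled libraries and 115, 176 and 90.4 CPM in wild type. Nes, named after its values were seen, fell to 0.561, 0.495 and 0.669 CPM in the labelled libraries, against 12.6, 6.29 and 12.8 CPM in wild type (edgeR adjusted p = 0.00118). Syt1, also named after its values were seen, had 5, 6 and 6 counts in the labelled libraries and 0, 2 and 0 in wild type (edgeR adjusted p = 0.0308). Epithelial, endothelial and leukocyte markers had 1, 0 and 1 tested members, of which edgeR, DESeq2 and limma-voom called 0 and 1 had an unadjusted p under 0.05 in edgeR. They had summed levels of at most 3.15 CPM in labelled and 3.22 CPM in wild-type libraries. The part of other cell types in the protocadherin levels was not tested.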

How the data were processed

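Gene-level RNA-seq counts of 6 NIH3T3 libraries were analysed. The values are raw counts per gene as the authors deposited them, whole numbers with no normalization. Tools named in the submitters' processing notes are HISAT2 2.0.5, DESeq2 and featureCounts 1.5.0-p3, and the build is mm10. The sources used here do not give the annotation release, read length, strand setting or handling of reads that match several genes. From these counts, differences were tested in R 4.3.3 with edgeR 4.0.16 (TMM factors, filterByExpr with the group, quasi-likelihood F test, Benjamini-Hochberg adjustment over 12651 genes, threshold 0.05), NgBR overexpression over wild type. DESeq2 1.42.0 and limma-voom (limma 3.58.1) were alternatives. A member's share is its percentage of the beta counts of a library. Intervals of fold changes are 95% intervals of the fit, and a floor of 3 counts covers counting error only. Gene positions, lengths and GC contents came from GENCODE M21, which held 97.8% of the identifiers. Replicates of a group differed beyond counting error, with a chi-square of at least 25.5 per degree of freedom for every pair. The fit was tested on simulated data with 100 genes changed 2-fold and 100 changed 4-fold. Of those that passed the filter it called 16.2% and 86.9%. Of its 104 calls, 2 were of genes left unchanged. A gene that was not called may therefore still differ 2-fold.

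The members and lists were chosen with earlier results of these data known. Genes named were all tested members, the 4 most abundant of each cluster, up to 4 called genes of each list or its 2 most abundant, and Nus1. A test of the leading member was planned for each cluster and could be run for beta alone. No sequence is printed.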

Additional observations from a re-analysis of the deposited data

How the results depend on the processing

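Members called stayed at 0 under every alternative run, except without both libraries numbered 2, where Pcdhb3 made it 1 (log2 fold change -2.36). Between 12 and 18 of 20 to 23 tested members were negative when 1 library was left out, with medians between -0.74 and -0.41, and between 13 and 17 of 19 to 23 under the other alternatives. At an unadjusted p under 0.05, between 2 and 13 members passed with 1 library left out and between 5 and 14 under the others. All genes called numbered 429, against 715 with DESeq2, 688 without a filter on low counts and 719 with the replicate number as a block, and between 225 and 374 with 1 library left out. The block called 0 members. Same-numbered libraries deviated together with correlations of 0.0147, 0.341 and 0.434, and 4 of 6 libraries correlated best with their own number, so the numbers were not taken as pairs. Of 490 alternative values for 31 named genes, 25 turned sign, 13 lost a call and 1 gained one; the cause was not tested. Turned values were -0.004 and -0.032 for Trim28 (no composition factors, no filter), -0.009 for Ehmt2 (no filter) and 0.03 for Pcdhb19 (libraries thinned). Without both libraries numbered 2 they were -0.25 for Pcdhb15, -0.12 for Pcdhb16, -0.20 for Ehmt2 and -0.013 for Trim28. With 1 library left out, ranges crossing 0 were -0.15 to 0.39 for Pcdhb4, -0.95 to 0.01 for Pcdhb14, -0.15 to 0.52 for Pcdhb15, -0.091 to 0.41 for Pcdhb16, -0.62 to 0.007 for Pcdhb17 and -0.40 to 0.14 for Pcdhb19. They were -0.09 to 0.24 for Ehmt2, -0.12 to 0.09 for Trim28, -0.057 to 0.50 for Diap1 and -0.013 to 0.30 for Hdac3. Psen2 also lost its call with limma-voom (adjusted p = 0.0523), without both libraries numbered 2 (0.0507) and with libraries thinned (0.0548). With 1 library left out, the log2 ratios ranged between -0.99 and -0.67 for alpha, -0.61 and -0.16 for beta, and -0.75 and -0.46 for gamma. Depth limits what can be said of Pcdhb1, Pcdhb10 and Pcdhb13. This holds also for Pcdhb3 and Pcdhb12, which did not pass the filter with libraries thinned. The SE was 0.27 for Pcdhga12, on 4106 to 6701 counts in the labelled libraries, and 0.24 for Pcdhb5, on 50 to 90. For Pcdhb3 the SE was 0.50, on 4 to 15 counts, and for Pcdhb12 it was 0.52, on 5 to 9. The part of depth in these SEs was not tested.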
